A study of Homo sapiens with 6 samples.

Results

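The SWI/SNF complexes are chromatin remodelers that use ATP to slide or evict nucleosomes, and the genes of their subunits other than ARID1A are described here in untreated AID-DIvA cells with and without ARID1A. The 30 subunit genes were matched by name in the deposited gene tables, where each was found once among 57820 genes. The RNA-seq data hold 3 samples of WT cells and 3 of ARID1A-KO cells, with the replicate numbers 3 to 5 for either genotype. AID-DIvA cells are U2OS osteosarcoma cells that carry a vector for the AsiSI endonuclease, and both genotypes share this background. AsiSI enters the nucleus only after tamoxifen, which was not given here. ARID1A-KO cells were made with Cas9 and a pair of guides against ARID1A, followed by the isolation of clones. The sources do not say which clone was sequenced or whether the 3 ARID1A-KO samples share it, so a difference between the genotypes cannot be told apart from a difference between clones. The study describes its experiments as independent biological replicates, and p-values measure the spread between these samples.

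SWI/SNF subunits assemble into a canonical BAF complex (cBAF), a polybromo-containing complex (PBAF) and a non-canonical complex (ncBAF). All of them hold the SMARCA4 (BRG1) or the SMARCA2 (BRM) ATPase. In cBAF, ARID1A and its paralog ARID1B are alternative subunits, in PBAF this place is taken by ARID2, and in ncBAF GLTSCR1 or GLTSCR1L is found and no ARID subunit. Many of the remaining subunits are also encoded by small families of paralogs of which a complex takes a single member, and SWI/SNF genes are frequently mutated in cancer. RNA levels alone were measured, so neither the proteins nor the make-up of the complexes can be read from these data.

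Both ATPase genes were lower in ARID1A-KO cells, SMARCA2 at 44.1% and SMARCA4 at 67.7% of the WT level. In such bulk samples, fewer cells that express a gene and less RNA per cell cannot be told apart. PHF10, SMARCE1, GLTSCR1L, ACTL6A and SMARCD1 fell as well. ARID1B, BRD7, BRD9 and GLTSCR1 rose by less than the falls of SMARCA2, PHF10, SMARCA4 and SMARCE1 on the log2 scale. With the changes of neighbouring genes taken off, this order changed for ARID1B and, against PHF10 and SMARCA4, for GLTSCR1. In all, 11 of the 29 subunit genes that could be tested were differentially expressed between the genotypes, 4 higher and 7 lower (37.9% of 29, adjusted p under 0.05 by edgeR's quasi-likelihood test, adjusted after Benjamini-Hochberg over all genes tested). Among all 19599 genes tested, 36.2% passed the same threshold, 17.8% higher and 18.4% lower, so the share of differentially expressed subunits was near the background of this comparison. The CPM of the genotypes did not overlap for 15 of the 29 subunits, against 49.5% of all genes tested. The median log2 fold change of the subunits was -0.048, beside 0.0066 for all genes tested, with 12 subunits above 0 and 17 below it. A change of 2-fold or more was found for 1 subunit, SMARCA2 (3.45% of 29, against 10.8% of all genes tested).

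The split into 4 higher and 7 lower subunits moved with the scaling. It was 1 and 7 when the median change of the tested genes within 5 Mb was taken off each gene, and 1 and 8 with an offset on GC content, which was chosen after the data were seen. With the changes of the neighbours taken off, ARID1B was the 1 higher subunit, at a log2 fold change of 1.13. This value depends on the window, since the median around ARID1B was -0.93 within 5 Mb and -0.14 within 1 Mb. Of the 7 lower subunits SMARCE1 had the largest fall, at -0.60. At an adjusted p under 0.01, 5 subunits were left and all 5 were lower (SMARCA2, SMARCA4, PHF10, SMARCE1 and GLTSCR1L).

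The samples held between 54512105 and 84088708 reverse-stranded counts. ARID1A itself had 166, 178 and 177 CPM (counts scaled to library size by TMM) in WT and 25.1, 27.5 and 25.2 CPM in ARID1A-KO samples, a log2 fold change of -2.74 (SE 0.07). This matches the labels of all 6 samples, although 15.0% of the WT level of ARID1A RNA was still counted. Of the 7 osteoblast markers, 5 were tested and 3 were differentially expressed, with ALPL, SPARC and COL1A1 all lower. RUNX2, the osteoblast transcription factor, stood at 15.0 ± 1.43 CPM in WT and 14.6 ± 3.82 CPM in ARID1A-KO cells (n = 3, SD), while SP7, BGLAP and COL1A2 were under 1 CPM in every sample. The summed level of the 7 markers was 1181 to 1268 CPM in WT and 713 to 789 CPM in ARID1A-KO samples. Among markers of other cell types, 1 of 2 tested blood cell markers, 3 of 3 epithelial and 5 of 5 neuronal markers were differentially expressed. Beside these marker counts and that of the osteoblast markers, 36.2% of all genes tested passed the same threshold. The blood cell markers summed to 1.72 to 2.91 CPM in WT and 0.323 to 0.886 CPM in ARID1A-KO samples, with CD3E, CD14 and HBB under 1 CPM in every sample. The epithelial markers summed to 5.71 to 7.78 CPM in WT and 14.0 to 17.9 CPM in ARID1A-KO samples, with KRT5 under 1 CPM. They did not move together, since EPCAM rose by 0.44 on the log2 scale and KRT20 from a mean of 0.205 to 7.94 CPM, while CDH1 fell from 1.25 to 0.540 CPM. The neuronal markers summed to 27.7 to 34.7 CPM and 55.5 to 63.3 CPM, with 4 higher and 1 lower. RBFOX3 rose from 1.59 to 17.2 CPM, and SNAP25 fell from 8.37 to 5.16 CPM. The part of these shifts in the changes of the subunits was not tested.

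**Figure D1:**
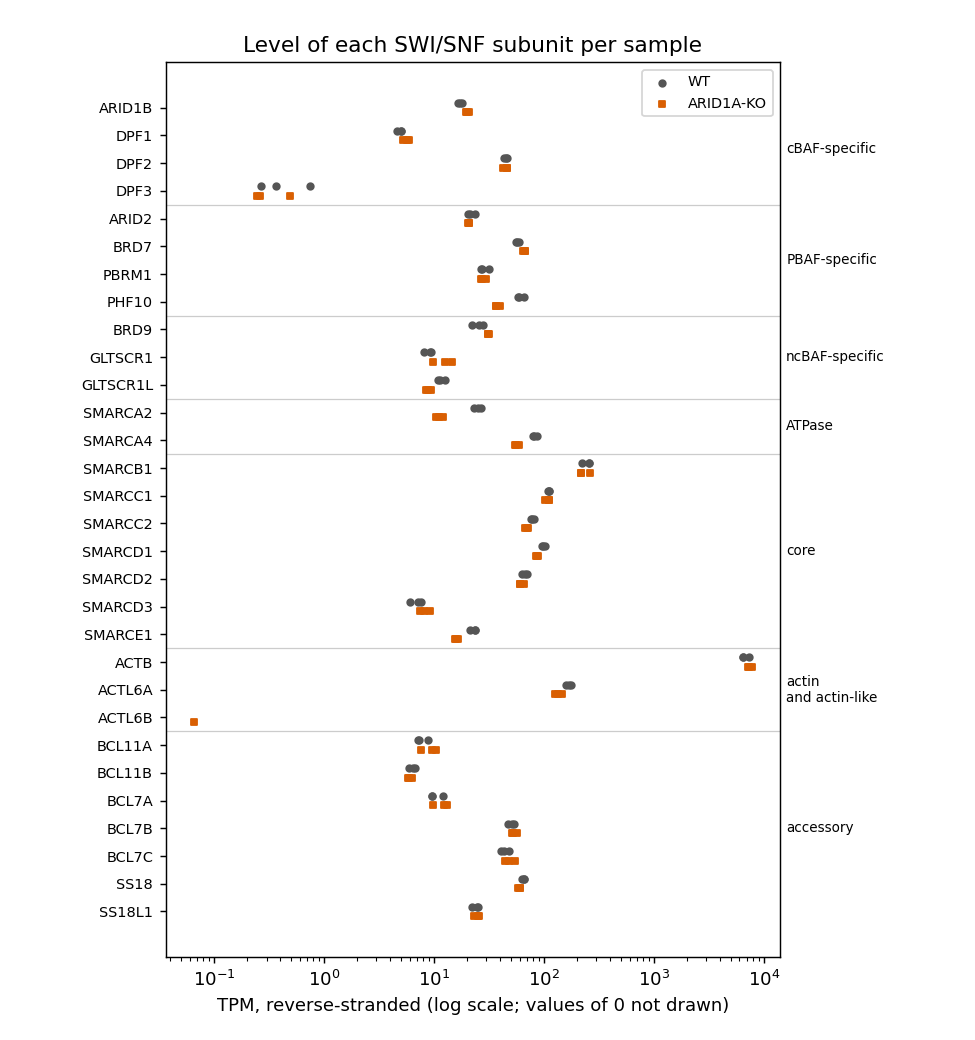
Level of the 30 SWI/SNF subunits in each sample, in length-scaled TPM (log scale) for reverse-stranded reads, grouped by complex or role. Circles are the 3 WT and squares the 3 ARID1A-KO samples, and ACTL6B appears only in 1 ARID1A-KO sample because it was at 0 in the other samples.

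Subunit levels spanned a wide range in AID-DIvA cells. TPM divides each count by the length of the gene's exons and allows levels of different genes to be compared. In WT cells, ACTB, the cytoplasmic actin that also sits in the complex, stood far above the other subunits at 6727 ± 470 TPM (SD, n = 3). SMARCB1, a core subunit lost in rhabdoid tumors, followed at 245 ± 20.0 TPM and ACTL6A at 167 ± 7.45 TPM (SD, n = 3). The paralogs DPF1 at 4.86 ± 0.227 TPM and DPF3 at 0.464 ± 0.255 TPM were the lowest subunits that could be tested. ACTL6B, the neuronal counterpart of ACTL6A, had no count in 5 samples and 3 counts in ARID1A-KO sample 5, and was not tested.

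The SWI/SNF ATPases are encoded by SMARCA4 on chromosome 19 and SMARCA2 on chromosome 9. The gene tables place SMARCA4 (ENSG00000127616.13) at chr19:11071598-11176071 and SMARCA2 (ENSG00000080503.15) at chr9:2015342-2193624, both on the plus strand of GRCh37. Their upstream sequences are shown because these genes encode alternative ATPases and both were lower in ARID1A-KO cells. Each is the 250 bases before the most upstream start that RefSeq lists, written 5′ to 3′ on the plus strand of GRCh38.p14, chr19:10960780-10961029 for SMARCA4 and chr9:2015097-2015346 for SMARCA2. Capitals mark GGGCGG on either strand (GC box, read as CCGCCC on the minus strand), and CCAAT and TATAAA were searched in the same way.

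SMARCA4: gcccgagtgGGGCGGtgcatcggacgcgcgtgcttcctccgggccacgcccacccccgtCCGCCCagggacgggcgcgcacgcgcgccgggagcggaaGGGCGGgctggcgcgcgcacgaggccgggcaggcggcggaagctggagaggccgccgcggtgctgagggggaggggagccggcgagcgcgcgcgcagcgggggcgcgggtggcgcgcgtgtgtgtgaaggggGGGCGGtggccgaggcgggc
SMARCA2: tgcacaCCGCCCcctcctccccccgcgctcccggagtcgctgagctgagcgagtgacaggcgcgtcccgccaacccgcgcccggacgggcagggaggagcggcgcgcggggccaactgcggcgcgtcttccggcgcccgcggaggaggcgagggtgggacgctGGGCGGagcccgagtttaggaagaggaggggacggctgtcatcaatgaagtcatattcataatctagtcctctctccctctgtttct

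SMARCA4 held 4 GC boxes in a sequence of 82.4% G and C, and SMARCA2 held 2 in a sequence of 68.8%. Neither contained CCAAT or TATAAA in this window. Of 35116 RefSeq promoters of the same length, 42.6% held a GC box, 32.0% CCAAT and 10.7% TATAAA, and the median GC content was 58.0%. A match of letters is a description and does not show binding.

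SMARCA2 had 36.6, 43.5 and 41.8 CPM in WT and 19.6, 17.9 and 16.3 CPM in ARID1A-KO samples 3, 4 and 5. The lowest WT sample lay well above the highest ARID1A-KO sample. The log2 fold change was -1.18 (SE 0.09, edgeR's adjusted p = 2.4e-05), the largest of all the subunits in this fit. SMARCA4 had 193, 201 and 221 CPM in WT and 136, 147 and 133 CPM in ARID1A-KO samples, again without overlap. Its log2 fold change was -0.56 (SE 0.07, edgeR's adjusted p = 0.000313). Both kept a negative change past the threshold in each of the 15 other fits at 0.05, with adjusted p-values of at most 0.0193 for SMARCA2 and 0.0147 for SMARCA4. Both maxima came from the fit with the median change of neighbouring genes taken off, where the log2 fold change was -0.35 for SMARCA2 and -0.28 for SMARCA4.

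In WT cells, SMARCA4 accounted for 76.7 ± 1.38% of the summed TPM of the ATPases, and in ARID1A-KO cells for 83.4 ± 1.33% (SD, n = 3). The ratio of SMARCA4 to SMARCA2 was 3.43, 3.01 and 3.44 in WT and 4.53, 5.37 and 5.29 in ARID1A-KO samples, so every ARID1A-KO sample had a higher ratio than every WT sample. The difference of the log2 ratios was 0.62, with an exact permutation p of 0.1 (two-sided), the smallest that 3 samples against 3 allow. Over the 18 pairs of genes with a ratio, the Benjamini-Hochberg adjusted p was 0.2 and no ratio could pass 0.05. The ratios were not adjusted for neighbouring genes, whose median change within 5 Mb was -0.84 around SMARCA2 and -0.28 around SMARCA4. With these medians taken off, SMARCA2 and SMARCA4 changed by similar amounts, -0.35 and -0.28. The part of the neighbours' changes in the shift of this ratio was not tested. The sum of the ATPases was 107 ± 5.33 TPM in WT and 67.5 ± 2.52 TPM in ARID1A-KO cells, 62.9% of WT and without overlap (exact permutation p = 0.1, adjusted over 12 families 0.15).

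**Figure D2:**
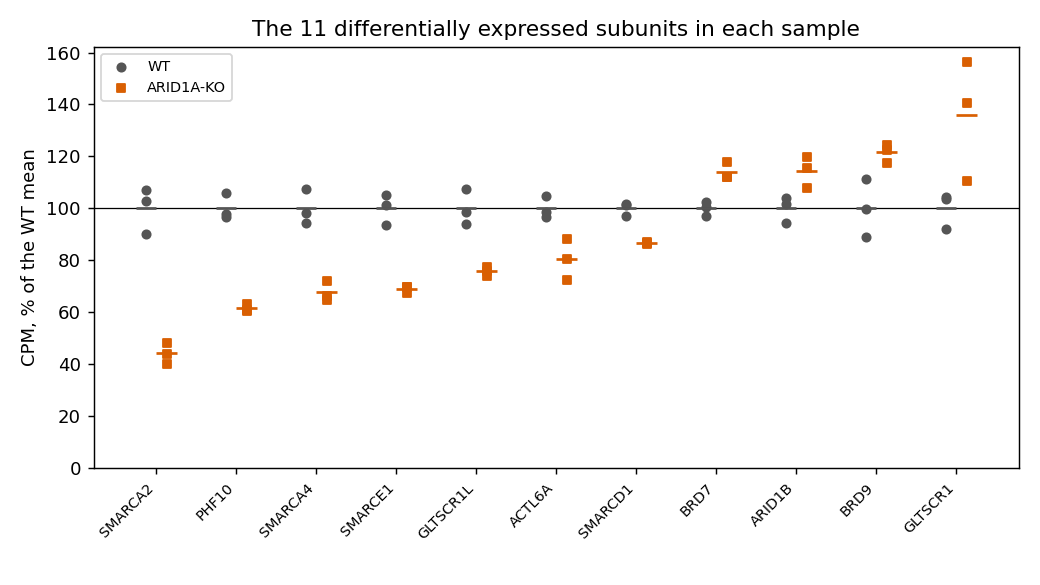
CPM of the 11 differentially expressed subunits as a percentage of the WT mean, with 3 WT samples (circles) and 3 ARID1A-KO samples (squares) per gene and the mean as a line. The 7 lower subunits stand to the left, from SMARCA2 at 44.1% to SMARCD1 at 86.7%, and the 4 higher subunits to the right, up to GLTSCR1 at 136%.

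Of the 4 genes of cBAF-specific subunits, ARID1B rose and the others did not pass the threshold. ARID1B (ENSG00000049618.17, chr6:157099063-157531913 in GRCh37, plus strand) is the paralog that can take the place of ARID1A. It had 60.7, 66.7 and 65.4 CPM in WT and 74.4, 77.0 and 69.3 CPM in ARID1A-KO samples. The groups did not overlap, and the gap between the highest WT and the lowest ARID1A-KO sample was smaller than the spread within either genotype. The log2 fold change was 0.19 (SE 0.07, edgeR's adjusted p = 0.0471). This call was held in 1 of the 6 fits that left out a sample (without ARID1A-KO sample 5), and it was lost without a filter on low counts and with unstranded counts, RLE normalization, DESeq2 and the offset on GC content. The offset on exonic length raised the change to 0.43 (edgeR's adjusted p = 0.0016). Taking off the median change of the neighbours within 5 Mb raised it to 1.13 (edgeR's adjusted p = 7.1e-06).

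The rise of ARID1B was small beside the loss of ARID1A RNA. The ARID1A to ARID1B ratio was 4.82, 4.71 and 4.77 in WT and 0.596, 0.632 and 0.642 in ARID1A-KO samples. The sum of both genes was 99.7 ± 2.65 TPM in WT and 32.5 ± 1.24 TPM in ARID1A-KO cells, 32.6% of WT (SD, n = 3, exact permutation p = 0.1). ARID1A made up 82.7 ± 0.174% of this sum in WT and 38.4 ± 0.912% in ARID1A-KO cells. With ARID2 added, ARID1A-KO cells had 43.8% of the WT sum.

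DPF1, DPF2 and DPF3 encode histone-reading subunits with plant homeodomain fingers, of which cBAF takes a single member. DPF2, by far the most abundant of them, had 74.1, 81.3 and 80.2 CPM in WT and 82.4, 80.5 and 71.2 CPM in ARID1A-KO samples, which overlapped throughout. Its log2 fold change was -0.01 (SE 0.07), and that of DPF1 was 0.18 (SE 0.11). DPF3 had 77, 30 and 34 counts in WT and 28, 21 and 65 in ARID1A-KO samples, with 1 high sample in each genotype. Its log2 fold change was -0.46 (SE 0.40), and leaving out each sample gave -0.85 to 0.05. The value of 0.05 was that without WT sample 3. On the opposite strand within DPF3, the counts were larger, 16.0 ± 2.70 CPM in WT and 13.8 ± 1.56 CPM in ARID1A-KO cells (n = 3, SD), so most unstranded reads at DPF3 lie on the other strand.

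The PBAF-specific genes moved in both directions. PHF10, which encodes the PBAF counterpart of the DPF proteins, had 78.8, 72.8 and 72.1 CPM in WT and 45.4, 45.2 and 47.0 CPM in ARID1A-KO samples. The 3 ARID1A-KO samples lay close together and far below WT, at a log2 fold change of -0.70 (SE 0.06, edgeR's adjusted p = 4.0e-05), which was -0.22 with the median change of its neighbours taken off (edgeR's adjusted p = 0.0225). PHF10 (ENSG00000130024.10) lies on the minus strand at chr6:170104001-170124151 (GRCh37), and 2401 bp of it overlap C6orf120 on the opposite strand, which counting by strand keeps apart. The ratio of DPF2 to PHF10 went with it, at 0.738 ± 0.0706 in WT and 1.19 ± 0.115 in ARID1A-KO cells (n = 3, SD, exact permutation p = 0.1).

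BRD7 (ENSG00000166164.11, chr16:50347398-50402845 in GRCh37, minus strand), a bromodomain subunit, had 113, 108 and 111 CPM in WT and 130, 124 and 124 CPM in ARID1A-KO samples. The log2 fold change was 0.19 (SE 0.06, edgeR's adjusted p = 0.027), with no overlap between the genotypes. It passed the threshold in 1 of the 6 fits that left out a sample (without ARID1A-KO sample 5) and not without a filter on low counts, and its direction turned to -0.14 when the median change of its neighbours was taken off. The change was 0.30 with the offset on exonic length and 0.31 with that on GC content. BRD7 overlaps ADCY7 on the opposite strand by 4649 bp, and forward-strand reads within BRD7 were 49.6 ± 6.23 CPM in WT and 76.2 ± 8.20 CPM in ARID1A-KO cells. The part of these reads in the change of BRD7 was not tested, and with unstranded counts the call of BRD7 was kept. Of the 11 differentially expressed subunits, 2 had more reads on the opposite strand in every ARID1A-KO sample than in every WT sample and 2 had fewer, against 8.95% and 7.51% of all genes tested.

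ARID2, the ARID subunit of PBAF, and PBRM1, its polybromo subunit, did not pass the threshold. ARID2 had 64.1, 59.0 and 57.3 CPM in WT and 57.1, 57.6 and 55.1 CPM in ARID1A-KO samples, a log2 fold change of -0.09 (SE 0.06). That of PBRM1 was -0.05 (SE 0.07), and for both genes the sign depended on the scaling. The ARID1B to ARID2 ratio was 0.797 ± 0.0815 in WT and 0.964 ± 0.0295 in ARID1A-KO cells without overlap (SD, n = 3, exact permutation p = 0.1).

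All 3 genes of ncBAF-specific subunits were differentially expressed, against 36.2% of all genes tested, and of the 3 only GLTSCR1L kept its call in every fit at 0.05. The paralogs GLTSCR1 and GLTSCR1L moved in opposite directions. The tables place GLTSCR1 (ENSG00000063169.6) at chr19:48111453-48206533 and GLTSCR1L (ENSG00000112624.8) at chr6:42749765-42836298 (GRCh37, plus strand). GLTSCR1 had 15.0, 15.0 and 13.3 CPM in WT and 16.0, 20.3 and 22.6 CPM in ARID1A-KO samples. ARID1A-KO sample 3 lay just above WT and the other two well above it, and the log2 fold change was 0.44 (SE 0.13, edgeR's adjusted p = 0.0216). GLTSCR1L had 18.9, 17.4 and 16.6 CPM in WT and 13.1, 13.4 and 13.7 CPM in ARID1A-KO samples. It fell by 0.40 on the log2 scale (SE 0.08, edgeR's adjusted p = 0.0046) in 3 of 3 ARID1A-KO samples and kept its call in all 15 other fits at 0.05, whereas the call of GLTSCR1 was lost in 3 of the 6 fits that left out a sample (without WT sample 5 and without ARID1A-KO samples 4 or 5).

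GLTSCR1L was the more abundant of these paralogs in WT and GLTSCR1 in ARID1A-KO cells. The ratio of GLTSCR1 to GLTSCR1L was 0.743, 0.805 and 0.748 in WT and 1.14, 1.41 and 1.54 in ARID1A-KO samples, below 1 in every WT and above 1 in every ARID1A-KO sample (exact permutation p = 0.1, the difference of log2 ratios 0.83). Their sum was 20.5 ± 1.64 TPM in WT and 21.2 ± 2.77 TPM in ARID1A-KO cells, which overlapped (SD, n = 3, exact permutation p = 0.8).

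BRD9, the bromodomain subunit of ncBAF, had 55.0, 61.6 and 49.1 CPM in WT and 68.8, 67.8 and 64.9 CPM in ARID1A-KO samples. The WT samples spread more widely than the ARID1A-KO samples, with no overlap. ZDHHC11 overlaps 696 bp of BRD9 on the same strand, with 13.7 CPM in WT and 10.5 CPM in ARID1A-KO cells. The part of this gene in the change of BRD9 was not tested. The log2 fold change was 0.28 (SE 0.08, edgeR's adjusted p = 0.0267), and the call was lost in 4 of the 6 fits that left out a sample (without WT samples 3 or 5 and without ARID1A-KO samples 3 or 4). With the regional and GC offsets, the calls of both BRD9 and GLTSCR1 were lost. Under the regional offset BRD9 was at 0.12 and GLTSCR1 at 0.30, and under the GC offset GLTSCR1 was at 0.02. The sum of BRD7 and BRD9 was the only 1 of 12 family sums that was higher in ARID1A-KO cells without overlap, at 97.2 ± 1.44 TPM against 82.7 ± 3.35 TPM in WT (118% of WT, SD, n = 3, exact permutation p = 0.1). The BRD7 to BRD9 ratio overlapped between the genotypes.

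**Figure D3:**
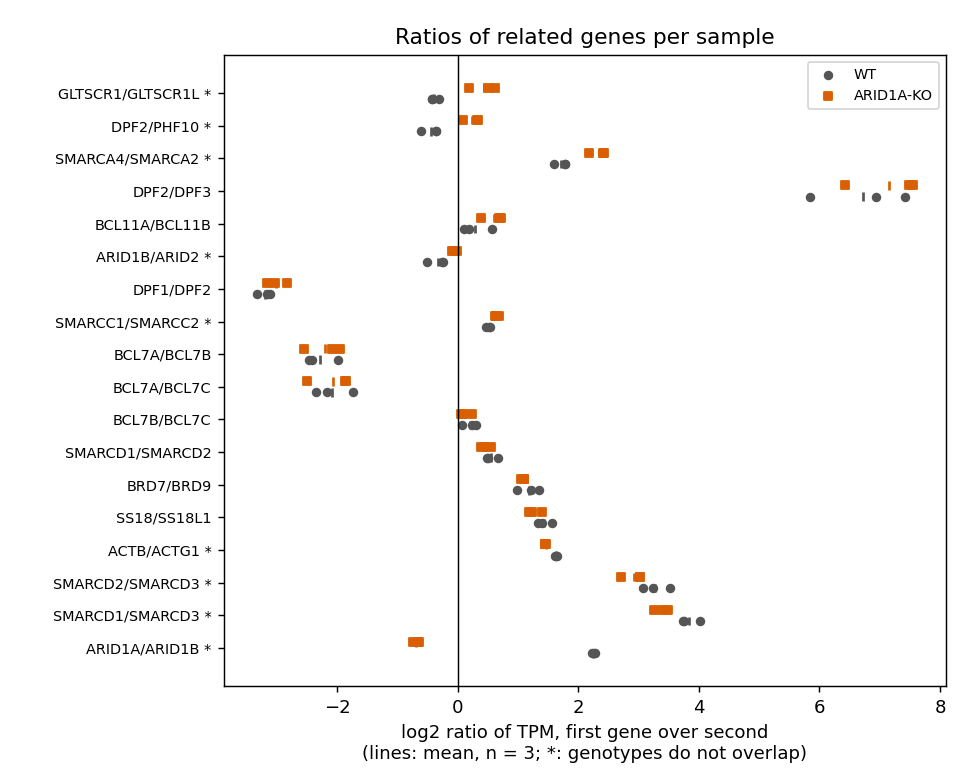
Log2 ratio of TPM within 18 pairs of related genes, all of them subunits except ACTG1, with 3 WT samples (circles), 3 ARID1A-KO samples (squares) and the mean as a short line, sorted by the difference between the genotypes. In 9 pairs, marked by asterisks, the genotypes did not overlap, among them ARID1A to ARID1B, which holds the targeted gene. For single genes, the CPM of the genotypes did not overlap in 49.5% of all genes tested. The mean log2 ratio of GLTSCR1 to GLTSCR1L went from -0.39 to 0.44.

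Of the 7 core genes, SMARCE1 and SMARCD1 fell and 5 did not pass the threshold. SMARCE1 (ENSG00000073584.14, chr17:38781214-38804760 in GRCh37, minus strand), a DNA-binding subunit of BAF and PBAF, had 58.1, 53.8 and 60.3 CPM in WT and 40.1, 38.6 and 40.0 CPM in ARID1A-KO samples. The groups were far apart, and the log2 fold change was -0.54 (SE 0.06, edgeR's adjusted p = 0.000245). KRT222 overlaps 19712 bp of SMARCE1 on the same strand, which counting by strand does not keep apart, and was at 0.0311 CPM in WT and 0.0272 CPM in ARID1A-KO cells.

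SMARCD1, SMARCD2 and SMARCD3 encode alternative subunits that link the complexes to transcription factors. SMARCD1 had 116, 112 and 117 CPM in WT and 99.0, 99.7 and 100 CPM in ARID1A-KO samples. Each genotype was tight and they did not overlap, with a log2 fold change of -0.21 (SE 0.05, edgeR's adjusted p = 0.0155) that lost the threshold without ARID1A-KO samples 3 or 4. The log2 fold change of SMARCD2 was -0.12 (SE 0.07) and that of SMARCD3, the rarest of the paralogs, 0.25 (SE 0.11, edgeR's adjusted p = 0.119). The ratio of SMARCD1 to SMARCD3 was 14.4 ± 1.63 in WT and 10.5 ± 0.831 in ARID1A-KO cells, and that of SMARCD2 to SMARCD3 was 9.80 ± 1.60 and 7.61 ± 0.918 (SD, n = 3, exact permutation p = 0.1 for both). Both ratios were separate between the genotypes, whereas that of SMARCD1 to SMARCD2 overlapped.

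SMARCC1 and SMARCC2 encode scaffold subunits on which the complexes are built. SMARCC2 had 145, 152 and 160 CPM in WT and 137, 139 and 126 CPM in ARID1A-KO samples, which did not overlap. Its log2 fold change of -0.19 (SE 0.07, edgeR's adjusted p = 0.0518) just missed the threshold. It passed with a minimum of 10 counts in every sample, without WT sample 3 and with the regional and GC offsets. With the offset on exonic length it was -0.08 (edgeR's adjusted p = 0.45), and leaving out each sample gave -0.23 to -0.14. RP11-977G19.5 overlaps 26585 bp of SMARCC2 on the same strand, with 5.39 CPM in WT and 4.85 CPM in ARID1A-KO cells. Its part in the change of SMARCC2 was not tested. SMARCC1 overlapped between the genotypes (log2 fold change -0.04, SE 0.07). The SMARCC1 to SMARCC2 ratio was 1.42 ± 0.0325 in WT and 1.57 ± 0.0425 in ARID1A-KO cells without overlap (SD, n = 3, exact permutation p = 0.1). SMARCB1 had 141, 126 and 148 CPM in WT and 124, 121 and 142 CPM in ARID1A-KO samples, and the log2 fold change of -0.10 (SE 0.08) was within the spread. With the GC offset it was -0.23 and passed the threshold (edgeR's adjusted p = 0.0357).

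Of the actin and actin-like subunits, ACTL6A fell. This gene (ENSG00000136518.12, chr3:179280668-179306196 in GRCh37, plus strand) encodes BAF53A, the form found in dividing cells. It had 138, 146 and 135 CPM in WT and 123, 112 and 101 CPM in ARID1A-KO samples, without overlap. The log2 fold change was -0.32 (SE 0.08, edgeR's adjusted p = 0.0122). The call was kept in all 6 fits that left out a sample and lost with the regional and GC offsets, at -0.06 and -0.20. ACTB did not pass the threshold, with a log2 fold change of 0.14 (SE 0.08), while ACTG1, the other cytoplasmic actin and no subunit here, rose by 0.30 (SE 0.08, edgeR's adjusted p = 0.0182). Actin genes have near-identical copies in the genome, and their counts are therefore uncertain.

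None of the 7 accessory genes was differentially expressed by edgeR, with 1 at an unadjusted p under 0.05, and none of them passed by DESeq2. That gene was SS18, known from its fusion in synovial sarcoma, with 85.7, 82.8 and 87.1 CPM in WT and 81.0, 75.7 and 76.5 CPM in ARID1A-KO samples. The genotypes did not overlap, and the log2 fold change was -0.13 (SE 0.06, edgeR's adjusted p = 0.104). Its paralog SS18L1 was at 0.02 (SE 0.07). For BCL7A, BCL7B and BCL7C, small subunits near the ATPase, the log2 fold changes were 0.15 (SE 0.14), 0.06 (SE 0.07) and 0.14 (SE 0.09). Those of the zinc finger factors BCL11A and BCL11B were 0.24 (SE 0.14) and -0.08 (SE 0.09), and all 5 of these genes overlapped between the genotypes. BCL11A passed the threshold only without ARID1A-KO sample 5.

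**Figure D4:**
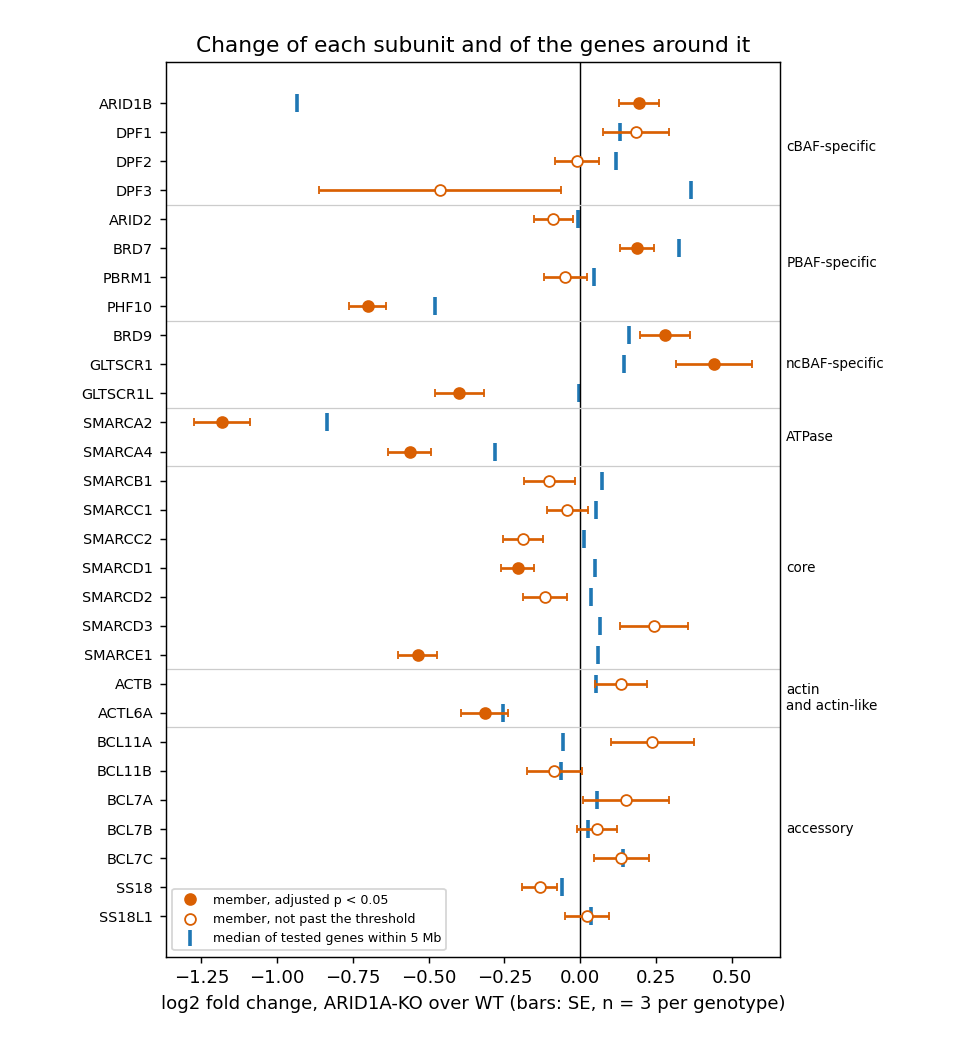
Log2 fold change of the 29 tested subunits (circles, filled where the adjusted p was under 0.05, bars SE) with the median of the tested genes within 5 Mb of each (vertical marks). SMARCE1 and GLTSCR1L lie far below their neighbours, SMARCA2 and PHF10 lie on the same side as theirs, and ARID1B lies above 0 beside a median of -0.93.

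The changes of several subunits stood beside changes of the genes around them. The median change of the tested genes within 5 Mb had the same sign as the subunit for 8 of the 11 differentially expressed subunits, and it was past 0.2 in size for 6 of the 11, among them ARID1B, which had the opposite sign. How often either holds over all differentially expressed genes was not determined, so these counts have no background beside them. Around SMARCA2, 30 of 35 neighbours were lower at an adjusted p under 0.05, against 18.4% of all genes tested. The median log2 fold change of these 35 neighbours was -0.84, against -1.18 for SMARCA2. Around PHF10, the median of 36 neighbours was -0.48 and 18 of them were lower. SMARCA4 lay below 208 of its 243 neighbours, whose median was -0.28. The median of 59 neighbours of ACTL6A was -0.25, close to the -0.32 of the gene itself. Relative to the median change of their neighbours, SMARCA2, PHF10 and SMARCA4 still passed the threshold, and ACTL6A did not. Regional and gene-level differences between the genotypes cannot be told apart in these counts, and their cause was not tested.

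Other subunits moved apart from their neighbours. SMARCE1, at -0.54, lay below 209 of 229 neighbours, whose median was 0.06. Within 1 Mb of SMARCE1, the median of 38 genes was -0.16. GLTSCR1L, at -0.40, lay below 78 of 96 neighbours with a median of -0.0047, and SMARCD1, at -0.21, lay below 127 of 161 with a median of 0.05. The neighbours of the higher subunits BRD7, BRD9 and GLTSCR1 had medians of 0.33 (46 genes), 0.16 (34 genes) and 0.15 (302 genes), on the same side as the subunits. After subtraction of these medians, BRD7 was at -0.14, BRD9 at 0.12 and GLTSCR1 at 0.30, and none of the 3 was called higher.

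ARID1B stood at the edge of a stretch of lower genes on chromosome 6. At lower coordinates, the 15 tested genes within 5 Mb had a median change of -0.07 (log2), with 3 lower and 1 higher. At higher coordinates, the median of the 34 genes was -1.07 and 31 of them were lower, against 18.4% of all genes tested. In the part between 1 and 5 Mb on that side, 29 of 30 genes were lower, with a median of -1.13. Within 1 Mb of ARID1B, the median of 5 genes was -0.14, and that of the 4 genes at higher coordinates was 0.22. ARID1B, at 0.19, was above 43 of its 49 neighbours within 5 Mb, and its difference from them depends on the side and distance taken.

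**Figure D5:**
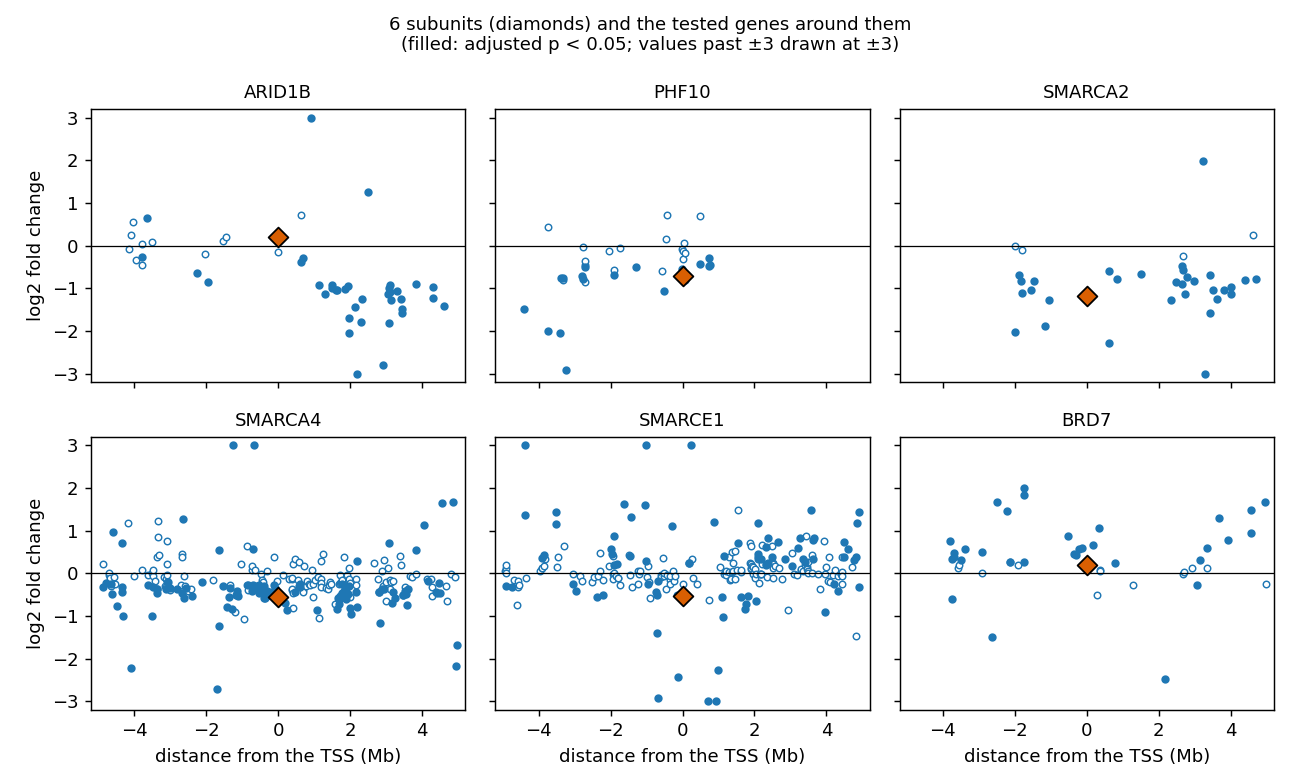
Log2 fold change of 6 subunits (diamonds) and of the tested genes within 5 Mb of them (circles, filled where the adjusted p was under 0.05), by distance of the start sites in Mb, with values past 3 in size drawn at the border. Around ARID1B the genes at higher coordinates lie near -1, around SMARCA2 most genes lie below 0, and SMARCE1 lies below most genes around it.

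The remaining families gave small or overlapping differences in their summed TPM. Of the 12 sums, 8 did not overlap between the genotypes, 7 lower and 1 higher in ARID1A-KO cells, with p = 0.1 by the exact permutation test and 0.15 after adjustment for each. Among the 7 lower sums, that of ARID1A with ARID1B and the same with ARID2 added hold the targeted gene. For single genes, the CPM of the genotypes did not overlap in 49.5% of all genes tested. ACTL6A with ACTL6B stood at 81.2% of WT, SMARCD1 to SMARCD3 at 91.2%, SMARCC1 with SMARCC2 at 94.3% and SS18 with SS18L1 at 95.1%. The sums of DPF1 to DPF3, BCL7A to BCL7C and BCL11A with BCL11B overlapped, at 102%, 108% and 109% of WT.

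Other chromatin genes were set beside the SWI/SNF subunits. Of 30 SNF2-type ATPase genes outside SWI/SNF, 6 were differentially expressed (20.0%), 1 higher and 5 lower, with a median log2 fold change of -0.05. The highest and lowest of them were CHD5 at 0.81 (SE 0.10) and CHD4, the ATPase of the NuRD complex, at -0.62 (SE 0.08). Of 11 other ARID-domain genes, 6 were differentially expressed (54.5%), 3 in each direction, with a median of 0.12. ARID3A rose by 0.99 (SE 0.09) and ARID5B had a change of -0.56 (SE 0.09). These shares lie on either side of the 36.2% of all genes, and differences between the lists were not tested.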

How the data were processed

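RNA of untreated AID-DIvA cells was sequenced in paired-end mode from 3 WT and 3 ARID1A-KO samples, grouped by their labels. The authors aligned the reads to hg19/GRCh37 with STAR and deposited featureCounts output, whole-number counts of each gene by strand and unstranded. The methods name a lifted annotation, but the identifiers in the gene tables lack the suffix that such releases carry, so the release used for counting is uncertain. Identifiers, coordinates and exon lengths are given as in those tables. The labels name polyA RNA, and the methods a kit for total RNA. The authors also deposited TPM values, which are treated as a score because they were scaled to the sum of the autosomal genes only. Total counts of 54512105 to 84088708 leave little counting error for all but the rarest subunits, and edgeR estimated a common coefficient of variation of 0.111 between replicates. All pairs of samples differed by more than sampling noise (chi-square per gene of at least 6.95).

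Reverse-stranded counts were filtered with filterByExpr, scaled by TMM and compared with edgeR's quasi-likelihood test (edgeR 4.0.16, R 4.3.3) over 19599 genes with Benjamini-Hochberg adjustment at 0.05, all 6 samples and no covariate. Ratios and sums of deposited TPM were compared with exact two-sided permutation tests (SciPy 1.17.1, Python 3.11.15). Alternatives were unstranded counts, RLE, DESeq2 1.42.0, a minimum of 10 counts, all genes unfiltered, a block for the replicate number, offsets on exonic length (loess span 0.3) and on the median change within 5 Mb, each sample left out, and an adjusted p under 0.01. The offset on GC content was chosen after seeing the data. For TPM, they were unstranded TPM, TMM CPM, 1 added to each value, a minimum of 1 and the block. When tested on simulated data (19305 genes, 200 of them changed), edgeR recovered 172 with 6 false calls and DESeq2 177 with 20.

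The members, the comparison lists and the markers were chosen with earlier results of these data known. All 30 subunits, ARID1A and ACTG1 are named, with the differentially expressed gene of largest rise and of largest fall from each comparison list. Marker genes and genes that overlap a subunit were chosen for naming after their values were seen. How reads that map to several places were counted is not given in the sources used here. Protein sequences were not used here, and some marker genes are not reported here.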

Additional observations from a re-analysis of the deposited data

Results flagged for a closer look

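Reads on the strand opposite to a subunit gene lie outside the counts used for the comparisons. At 2 of the 11 differentially expressed subunits, BRD7 and SMARCE1, their level was higher in every ARID1A-KO sample than in every WT sample, and at 2, PHF10 and ACTL6A, it was lower in every ARID1A-KO sample. Over all genes tested, 8.95% were higher and 7.51% lower in this way. At BRD7, forward-strand reads were 43.6, 56.0 and 49.2 CPM in WT and 81.5, 80.2 and 66.7 CPM in ARID1A-KO samples, with means of 49.6 and 76.2 CPM (exact permutation p = 0.1, the smallest that 3 against 3 allow). ADCY7, which overlaps BRD7 by 4649 bp on that strand, had 92.9 CPM in WT and 140 CPM in ARID1A-KO cells by its own counts. At SMARCE1, forward-strand reads were 1.39, 1.14 and 1.55 CPM in WT and 1.69, 1.77 and 1.95 CPM in ARID1A-KO samples, with means of 1.36 and 1.80 CPM (exact permutation p = 0.1). At PHF10, they were 12.2 ± 0.301 CPM in WT and 10.7 ± 1.04 CPM in ARID1A-KO samples (SD, n = 3, exact permutation p = 0.1). At ACTL6A, they were 1.10 ± 0.138 CPM in WT and 0.691 ± 0.210 CPM in ARID1A-KO samples (SD, n = 3, exact permutation p = 0.1). The part of these reads in the changes of the 4 subunits was not tested.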

How the results depend on the processing

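Of the 11 calls among the subunits, 5 (SMARCA2, SMARCA4, PHF10, SMARCE1 and GLTSCR1L) were kept in all 15 alternative fits at 0.05 and at an adjusted p under 0.01, where 5 subunits and 4414 of all genes were left. Leaving out each sample gave 6 to 11 subunits, with 7 without WT sample 5, 7 without ARID1A-KO sample 3 and 6 without ARID1A-KO sample 4, and 5285 to 7050 of all genes. The other settings gave 8 to 12 subunits. Whether the numbers 3 to 5 pair the samples is not stated in the sources and cannot be decided from so few samples. The deviations of same-numbered samples correlated at -0.18, 0.27 and 0.18, and not every sample correlated best with its own number. The fit with the replicate block called the same 11 subunits and 7477 of all genes, and 7099 were called without it.

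Of the 11 called subunits, only BRD7 changed direction in the alternatives run, to a log2 fold change of -0.14 with the regional offset. That offset also gave -0.014 for SS18L1 and -0.0050 for BCL7C. The offset on exonic length gave 0.097 for ARID2, 0.037 for SMARCC1, 0.071 for DPF2 and 0.088 for PBRM1, and that on GC content 0.037 for ARID2, 0.037 for SMARCC1, -0.023 for DPF1, 0.075 for PBRM1 and -0.12 for BCL7C. Leaving out each sample gave -0.077 to 0.017 for SMARCC1, -0.059 to 0.053 for DPF2, -0.85 to 0.052 for DPF3, -0.089 to 0.014 for PBRM1 and -0.027 to 0.060 for SS18L1. The log2 ratio differences ranged from -0.027 to 0.27 for BCL7A/BCL7B, from -0.12 to 0.23 for BCL7A/BCL7C and from -0.026 to 0.78 for DPF2/DPF3, and the difference in the sum of GLTSCR1 and GLTSCR1L from -0.674 to 2.09 TPM. With unstranded TPM, the sum of DPF1 to DPF3 differed by -0.474 TPM (ARID1A-KO minus WT). No other ratio or sum changed direction in the alternatives run. With a TPM of at least 1 in every sample, 17 pairs were left and 9 did not overlap, ARID1A to ARID1B among them (single genes by CPM: 49.5% of all genes tested). The causes were not tested. With 3 samples per genotype no ratio or sum could pass 0.05, and the low counts of DPF3 and ACTL6B limit what could be detected.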
